A study of Homo sapiens with 6 samples.

Results

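The expression of 10 genes was examined in PANC-1 cells, an established human cell line from a pancreatic ductal adenocarcinoma. These genes were the chemokines CXCL1, CXCL2, CXCL3, CXCL8, CXCL16, CCL2, CCL20 and CX3CL1 and the colony-stimulating factors CSF1 and CSF2. They were taken by symbol, and their Ensembl identifiers were looked up among the 30735 genes listed for each sample. Of the 10 genes, 9 were listed. CSF2 was not listed, and no value is given for it here. RNA-seq had been performed on 3 samples that received CD73 siRNA and 3 that received a negative control siRNA, all with Lipofectamine 3000 in serum-free medium, and the samples of each group were numbered 1 to 3. The product of NT5E, CD73 is an ectoenzyme that converts extracellular AMP to adenosine. All 6 samples came from the same cell line. The study describes the 3 replicates as knockdown experiments done separately, while the labels do not say whether they were separate cultures. P-values measure the spread between these samples. The methods give a CD73 siRNA product under one catalogue number.

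Chemokines are small secreted proteins that attract leukocytes through G protein-coupled receptors on the target cell. CXCL1, CXCL2, CXCL3 and CXCL8 carry the ELR motif, bind CXCR2 and recruit neutrophils. CCL2 recruits monocytes through CCR2, and CCL20 recruits CCR6-positive lymphocytes and dendritic cells. CXCL16 and CX3CL1 are made as transmembrane proteins with the chemokine domain on a stalk, and proteases such as ADAM10 and ADAM17 release the soluble form. CSF1, whose receptor is CSF1R, sustains monocytes and macrophages and also has membrane-bound forms. CSF2 (GM-CSF) acts on granulocytes and macrophages. In pancreatic cancer these ligands are known as signals from tumour cells to myeloid cells, and many of their genes are targets of NF-κB.

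The 4 ELR chemokine genes lie on chromosome 4, and their promoters are shown because they share a stretch that reads as an NF-κB-type site. The search used the letters GGAATTTCC on both strands, in RefSeq windows from 250 bases before to 50 bases after each gene start (GRCh38.p14). These windows were at hand for 6 of the 10 genes, and 4 of them held the letters, against 0.461% of all 35116 windows. As these promoters are shown for this stretch, and those of CXCL1, CXCL2 and CXCL3 are nearly alike, this is a description and no test. No window was at hand for CSF1, CCL2, CXCL16 and CX3CL1. Each line gives 30 bases, 5′ to 3′ on the strand of the gene, with the matched letters in capitals. The first matched base lay 78 bases before the start in CXCL1 and CXCL3, 77 in CXCL2 and 91 in CXCL8.
CXCL1 (chr4:73869305-73869334, forward strand): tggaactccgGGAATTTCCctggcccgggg
CXCL2 (chr4:74099253-74099282, reverse strand): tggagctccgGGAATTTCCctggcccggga
CXCL3 (chr4:74038748-74038777, reverse strand): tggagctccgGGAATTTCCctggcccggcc
CXCL8 (chr4:73740468-73740497, forward strand): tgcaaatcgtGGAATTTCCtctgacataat
The stretches of CXCL1 and CXCL2 were identical at 28 of 30 bases and those of CXCL1 and CXCL3 at 27, whereas CXCL1 and CXCL8 matched at 17. Those of CXCL2 and CXCL3 fall inside the longest gene bounds of GENCODE release 29, which start upstream of the RefSeq start. The windows of CCL20 and CSF2 did not hold these letters. A match is a description of sequence and does not show that a factor was bound.

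The deposited values were read as RPKM, in which the reads of a gene are divided by its length and by the library total, so that levels can be compared between genes. Library totals derived from the values were 15009118 to 16836207 reads (or read pairs). NT5E, the target of the siRNA, was at 14.0, 13.9 and 17.1 RPKM in negative control replicates 1, 2 and 3 and at 3.36, 6.85 and 8.22 RPKM in CD73 siRNA replicates 1, 2 and 3. The groups did not overlap. Of 7 ductal epithelial markers, 6 were above the limit of the test described below, while KRT7 was at 0.107 RPKM or less in every sample. CDH1, EPCAM and MUC1 lay close to this limit of 1 RPKM, with control means of 1.18, 1.21 and 1.77 RPKM. The summed level of this list was 138 to 255 RPKM in the negative controls and 72.8 to 105 RPKM with CD73 siRNA. The difference was mainly in KRT8, at 105 ± 46.6 and 41 ± 9.57 RPKM (SD, n = 3 each), and KRT18, at 70.4 ± 15.3 and 43.3 ± 6.25 RPKM. Limma gave unadjusted p-values of 0.00261 for KRT8 and 0.00448 for KRT18 (adjusted p = 0.303 for each), so both fell at the limit of 0.01 used below. The annotated bounds of these keratin genes overlap on opposite strands. The part of this difference in the results below was not tested. Leukocyte markers were near 0. Of 10, 8 were listed, their sum was 0.424 to 0.59 RPKM in the controls and 0.161 to 0.598 RPKM with CD73 siRNA, and PTPRC, the pan-leukocyte gene, did not exceed 0.0154 RPKM. Of 8 endothelial and fibroblast markers only COL3A1 passed the limit, at 8.87 ± 3.12 RPKM in the controls and 10.4 ± 3.65 RPKM with CD73 siRNA (SD, n = 3 each).

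In negative control cells the listed genes spanned a wide range of levels, and 5 of the 9 had a mean of at least 1 RPKM. CSF1 was the highest, at 30.5 ± 9.17 RPKM (SD, n = 3). CCL2 followed at 18.6 ± 2.2 RPKM and CXCL16 at 7.63 ± 1.95 RPKM, and the samples of these 3 genes did not overlap with one another. CXCL1, at 1.53 ± 0.463 RPKM, and CX3CL1, at 1.45 ± 1.12 RPKM, could not be ordered because their samples overlapped. CXCL8, at 0.53 ± 0.285 RPKM, overlapped with CX3CL1. CCL20 was at 0.288 ± 0.00956 RPKM, and its highest control (0.298 RPKM) lay just under the lowest of CXCL8 (0.302 RPKM). CXCL2, at 0.212 ± 0.149 RPKM, overlapped with CCL20, and CXCL3, at 0.0588 ± 0.0601 RPKM, with CXCL2. CSF1 and CCL2 together made up 74.9% to 82.5% of the summed RPKM of the 9 genes in every sample. The CXCR2 ligands CXCL1, CXCL2, CXCL3 and CXCL8 were each below 2 RPKM in every sample.

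Transfection with CD73 siRNA was compared with negative control siRNA to see which of these genes changed when CD73 was reduced. All 9 listed genes had a lower mean RPKM with CD73 siRNA, and 4 of them, CSF1, CCL2, CXCL16 and CXCL1, passed the filter on low values. The share of all genes with a lower mean was not counted. In CCL20, CXCL2 and CXCL3 the direction says little, because they had few reads. CSF1 fell to 52.4% of the control mean and was the only one of the 4 below an unadjusted p of 0.01, the limit the study used. When limma was fitted with the replicate number as a block, CXCL16 and not CSF1 was the only one below it. Adjusted p was below 0.05 in 0 of the 4, while 3 (CSF1, CCL2 and CXCL16) were lower at an unadjusted p below 0.05, as were 4.9% of all tested genes. CCL2 left this wider limit without CD73 siRNA replicate 1 or negative control replicate 1. The test was limma on log2(RPKM + 1), over the 12527 genes that reached 1 RPKM in 3 or more samples. For low genes, the offset of 1 makes fold changes too small. Among all tested genes, 1.31% were lower at an unadjusted p below 0.01 and 0.00798% (1 gene) had an adjusted p below 0.05 in either direction. The summed RPKM of the 9 genes was 76.8, 50.4 and 55.3 in negative control replicates 1, 2 and 3 and 31.1, 44.3 and 35.9 in CD73 siRNA replicates 1, 2 and 3, without overlap.

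**Figure D1:**
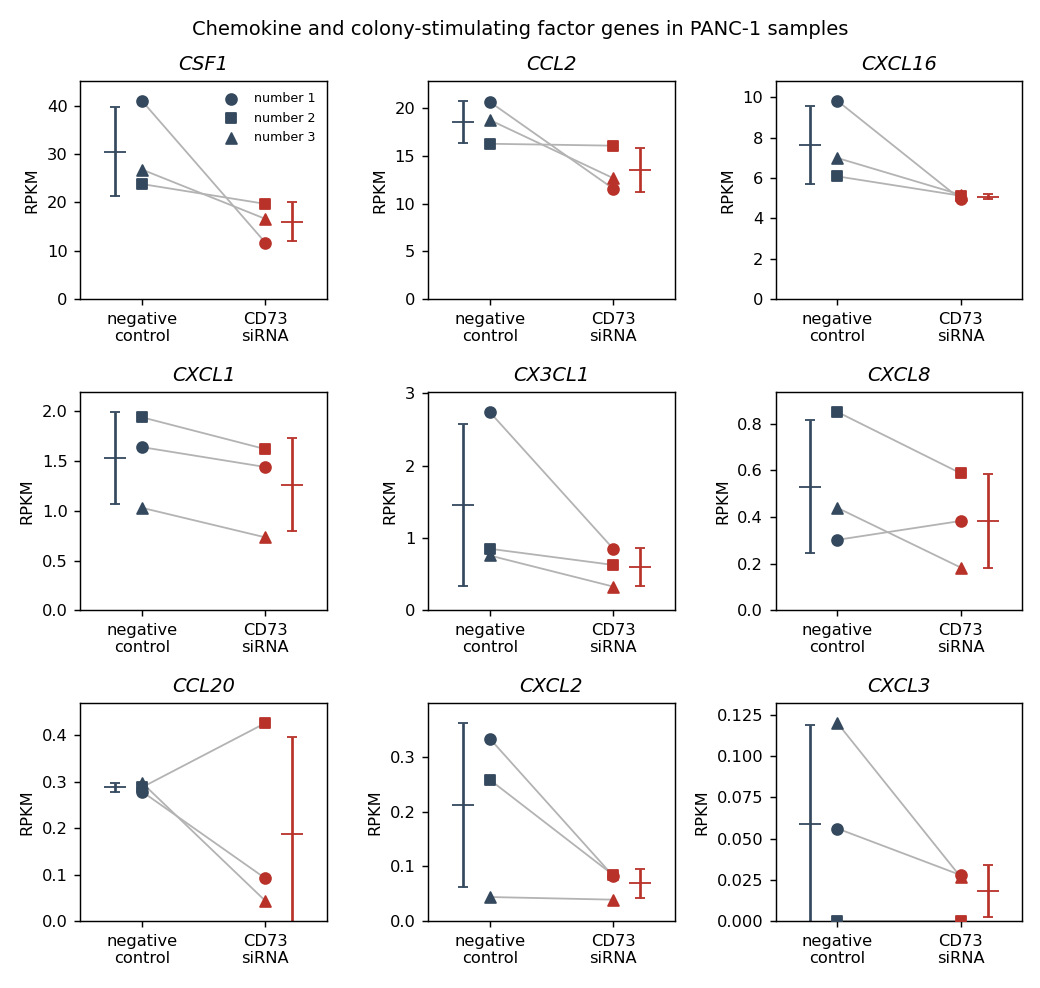
RPKM of the 9 listed genes in each sample (points, with a marker for each replicate number and lines joining samples of the same number), with group mean and SD beside them (horizontal marks and bars, n = 3; bars are drawn from 0 upward, which clips those of CCL20 and CXCL3). CSF1, CCL2 and CXCL16 are separated between the groups, the other 6 genes overlap, and negative control replicate 1 is the highest sample in 5 of the 9.

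CSF1 (ENSG00000184371), the macrophage colony-stimulating factor gene, lies on chromosome 1 (109910242 to 109930992, forward strand; GRCh38, GENCODE release 29). It was at 41, 23.8 and 26.8 RPKM in negative control replicates 1, 2 and 3 and at 11.7, 19.7 and 16.6 RPKM in CD73 siRNA replicates 1, 2 and 3. Every CD73 siRNA sample lay below every control, but the distance between the nearest samples of the groups was small. Limma gave a log2 fold change of -0.88 with SE (standard error) 0.236, an unadjusted p of 0.00579 and an adjusted p of 0.305, and CSF1 was lower in 3 of 3 same-number pairs. These values rested on 1016 to 3562 reads per sample. Blocking on replicate number gave a p of 0.0115 in limma, so that CSF1 was no longer below 0.01. It was also above that limit without CD73 siRNA replicate 1 (0.0211), CD73 siRNA replicate 3 (0.0121) or negative control replicate 1 (0.0176) and with no filter on low values (0.0137). The log2 fold change ranged from -1.04 to -0.66 over all alternatives. In bulk samples, fewer cells that express a gene and less RNA per cell cannot be told apart.

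CCL2 (ENSG00000108691), on chromosome 17 (34255218 to 34257203, forward strand), was at 20.7, 16.3 and 18.8 RPKM in negative control replicates 1, 2 and 3. In CD73 siRNA replicates 1, 2 and 3 it was at 11.6, 16.1 and 12.7 RPKM. The groups were separated only narrowly, and the samples numbered 2 were nearly level, with 502 reads each. The log2 fold change was -0.44 (SE 0.143, limma adjusted p = 0.342), and its 95% interval ran from -0.77 to -0.11.

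CXCL16 (ENSG00000161921), the transmembrane ligand of CXCR6, lies on the same chromosome (4733526 to 4739922, reverse strand). It was at 9.82, 6.08 and 6.99 RPKM in negative control replicates 1, 2 and 3. With CD73 siRNA the samples were close together, at 4.94, 5.12 and 5.17 RPKM, and all of them lay below the controls. The log2 fold change was -0.48 (SE 0.159, limma adjusted p = 0.346). Its unadjusted p from limma was 0.0162 when unblocked and 0.00998 in the fit that blocked on replicate number, where the adjusted p was 0.132, and 3.3% of all tested genes were lower below 0.01 in that fit. CXCL16 overlaps MED11, a Mediator subunit gene on the opposite strand, and the strand setting of the read counting is not given in the sources used here. MED11 itself had a log2 fold change of 0.34 (SE 0.175, limma adjusted p = 0.474).

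CXCL1 (ENSG00000163739), an ELR chemokine on chromosome 4 (73869393 to 73871242, forward strand), was near the limit of the test. It was at 1.64, 1.94 and 1.03 RPKM in negative control replicates 1, 2 and 3 and at 1.44, 1.62 and 0.733 RPKM in CD73 siRNA replicates 1, 2 and 3, from 16 to 39 reads per sample. The groups overlapped, and in both of them replicate 2 was the highest and replicate 3 the lowest. The log2 fold change of -0.17 (SE 0.209, limma adjusted p = 0.776) had a 95% interval from -0.65 to 0.31. Without CD73 siRNA replicate 3 it was 0.01.

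The 3 genes separated between the groups, CSF1, CCL2 and CXCL16, can be set against 8.07% of all tested genes in which every CD73 siRNA sample lay below every control. In all 4 tested genes the CD73 siRNA sample was lower in each same-number pair, which held for 24.5% of all tested genes. The median log2 fold change of the 4 was -0.46, against 0.01 over all tested genes. Counts over 4 genes that were chosen with earlier results of these data known carry little weight.

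The remaining 5 listed genes did not pass the filter, and their read numbers were low except for CX3CL1. CX3CL1 (ENSG00000006210; chromosome 16, forward strand, 57372458 to 57385048), which encodes fractalkine, was at 2.74, 0.85 and 0.757 RPKM in negative control replicates 1, 2 and 3 and at 0.853, 0.627 and 0.328 RPKM in CD73 siRNA replicates 1, 2 and 3. Negative control replicate 1 stood far above the other 5 samples, with 263 reads against 33 to 82. The mean with CD73 siRNA was 41.6% of the control mean, and 74.9% when negative control replicate 1 was left out. CD73 siRNA replicate 1 just exceeded the 2 lower controls, so the groups overlapped (exact permutation test on log2 values, two-sided, p = 0.3; with 3 samples against 3 it cannot give less than 0.1).

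CXCL8 (ENSG00000169429; chromosome 4, forward strand, 73740506 to 73743716), the neutrophil attractant interleukin-8, was at 0.302, 0.85 and 0.439 RPKM in the negative controls and at 0.383, 0.587 and 0.183 RPKM with CD73 siRNA, in the order of replicates 1, 2 and 3. Its groups overlapped, its value was higher with CD73 siRNA in the pair numbered 1, and 7 to 30 reads per sample stood behind it. CCL20 (ENSG00000115009; chromosome 2, forward strand, 227805739 to 227817564) had 6 reads in each negative control and 2, 9 and 1 reads in CD73 siRNA replicates 1, 2 and 3. CXCL2 (ENSG00000081041; chromosome 4, reverse strand, 74097035 to 74099293) had 8, 6 and 1 reads in negative control replicates 1, 2 and 3 and 2, 2 and 1 with CD73 siRNA. CXCL3 (ENSG00000163734; chromosome 4, reverse strand, 74036589 to 74038807) had 2, 0 and 4 reads in the negative controls and 1, 0 and 1 with CD73 siRNA. With no filter on low values, limma gave these 5 genes log2 fold changes from -0.53 (CX3CL1) to -0.05 (CXCL3), with adjusted p-values from 0.728 to 0.819. A change in CCL20, CXCL2 or CXCL3 was not detectable at this depth. The transcripts of CXCL1, CXCL2 and CXCL3 are related closely enough to share reads. Of the stretches of 50 bases in their annotated transcripts, 4.81%, 12.5% and 6.01% also occurred in transcripts of the other two, so that small values of CXCL2 and CXCL3 are uncertain.

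Compared within replicate number, the difference had a size that depended on the number. For CSF1 the CD73 siRNA value was 28.5%, 82.9% and 62% of that of its control in pairs 1, 2 and 3. The corresponding percentages were 56.3%, 98.7% and 67.8% for CCL2, 50.3%, 84.1% and 73.9% for CXCL16, and 31.1%, 73.7% and 43.3% for CX3CL1. In these 4 genes pair 1 had the largest and pair 2 the smallest difference. NT5E itself remained at 24.1%, 49.4% and 47.9% of its control in pairs 1, 2 and 3, which is the same order, although its pairs 2 and 3 differed little. In pair 1, NT5E was low in the CD73 siRNA sample (3.36 RPKM, against 6.85 and 8.22 in replicates 2 and 3). CXCL16 and CX3CL1 instead were high in negative control replicate 1 (9.82 and 2.74 RPKM). Their CD73 siRNA replicate 1 (4.94 and 0.853 RPKM) lay close to or above replicates 2 and 3. Whether the order follows the depth of knockdown was not tested. The other 5 listed genes did not follow this order. CXCL1 was at 88%, 83.5% and 71.3% of its control in pairs 1, 2 and 3, CXCL2 had its smallest difference in pair 3, and CXCL3, CXCL8 and CCL20 had their largest there. The 4 genes in the shared order were picked out after their values were seen. This order was not particular to them, and its share over all tested genes was not counted. KRT8 had it too, with differences in log2(RPKM + 1) of -1.78, -0.59 and -1.45 in pairs 1, 2 and 3. So did KRT18, whereas EBI3, described below, did not. Of the 9 listed genes, 8 were lower with CD73 siRNA in pair 1, 7 in pair 2 and 9 in pair 3, and 6 were lower in all of them. Among all tested genes, 24.5% were lower in all 3 pairs. That share leaves out genes under the filter, such as CXCL2 and CXCL3.

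**Figure D2:**
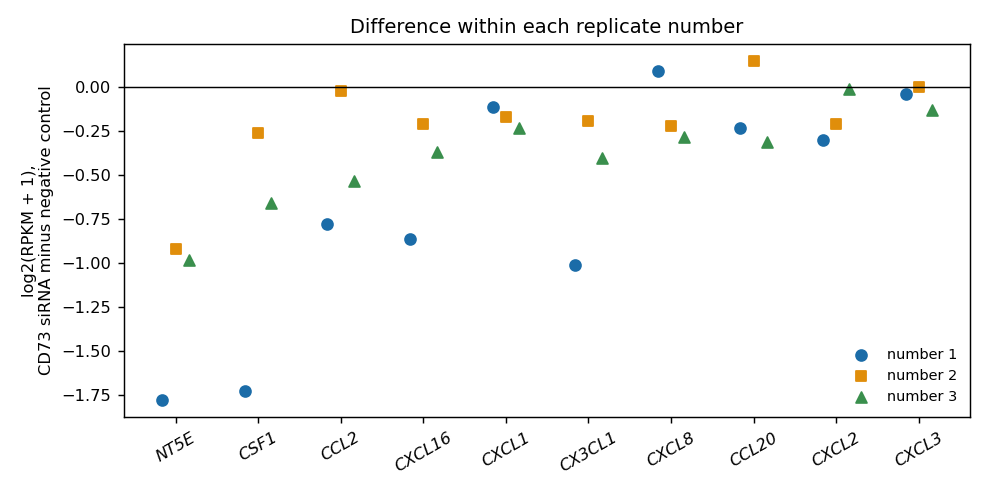
Difference in log2(RPKM + 1) between CD73 siRNA and negative control for NT5E and the 9 listed genes, with a point for each replicate number and a line at 0. CSF1, CCL2, CXCL16 and CX3CL1 have their largest difference in pair 1 (-1.73, -0.78, -0.86 and -1.01) and their smallest in pair 2 (-0.26, -0.02, -0.21 and -0.19).

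The ratio of CSF1 to CCL2 also differed between the groups. CSF1 was 1.98, 1.46 and 1.43 times as high as CCL2 in negative control replicates 1, 2 and 3, and 1, 1.23 and 1.31 times as high in CD73 siRNA replicates 1, 2 and 3. All 3 controls were above all 3 CD73 siRNA samples. This ratio was chosen after the values were seen and was not tested.

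The variation of each gene over the 6 samples was divided into a share that follows treatment, a share that follows replicate number and a remainder, as sums of squares of log2(RPKM + 1). Treatment took 66.7% in CSF1, 65.4% in CCL2 and 63.7% in CXCL16, against a median of 20.8% over all tested genes. These are the genes separated between the groups, so a large treatment share restates that separation and adds no support to it. Replicate number took 0.192%, 1% and 15.3% in the same genes. In CXCL1 and CXCL8 the division was different, with 10.7% and 11.4% for treatment and 88.4% and 73.2% for replicate number. The median share of replicate number over all tested genes was 51.9%. CSF1, CCL2 and CXCL16 moved together over the samples, with Pearson correlations between 0.85 and 0.96 (n = 6 samples in 2 treatment groups, no test). Those of CXCL1 with the other 3 were 0.22 to 0.32. As the first 3 genes are separated between the same groups and CXCL1 is not, these correlations partly restate that separation. What the replicate number stands for (a day, a passage or a plate) is not given in the labels.

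**Figure D3:**
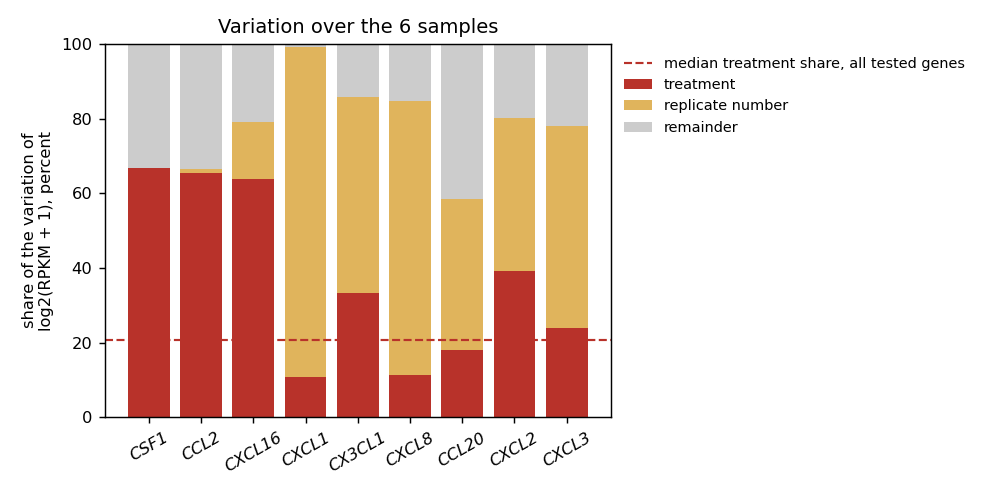
Share of the variation of log2(RPKM + 1) over the 6 samples that follows treatment, replicate number or neither, for the 9 listed genes (stacked bars, percent), with the median treatment share of all tested genes as a dashed line at 20.8%. CSF1, CCL2 and CXCL16 are mostly treatment (63.7% to 66.7%), and CXCL1 is mostly replicate number (88.4%).

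The genes whose pattern over the 6 samples was most like the mean of the 4 tested genes were IMP4, TIMP1, COPS9, S100A4 and EPHA2, with Pearson correlations of 0.998, 0.996, 0.995, 0.992 and 0.992 (n = 6 samples, genes of at least 5 RPKM on average, no test). Among them TIMP1, an inhibitor of matrix metalloproteinases, was at 31.5 ± 5.18 RPKM in negative controls and 23 ± 3.39 RPKM with CD73 siRNA (SD, n = 3 each; log2 fold change -0.43, limma adjusted p = 0.353). EPHA2, a receptor tyrosine kinase, was at 172 ± 24 and 131 ± 11.9 RPKM (log2 fold change -0.39, limma adjusted p = 0.342). Its unadjusted p in limma was 0.0146 unblocked and 0.00681 when blocked on replicate number (adjusted p = 0.119). The 5 genes were picked for a pattern that is itself lower with CD73 siRNA. Their fold changes and p-values therefore follow from that choice and add no support.

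Few other ligands of the family were expressed. Of 36 further chemokine genes, 14 were listed, CCL5 and CCL28 passed the limit, and the other 12 did not exceed 0.2 RPKM in any sample. CCL5, which attracts T cells, was at 9.65, 8.01 and 1.72 RPKM in negative control replicates 1, 2 and 3 and at 7.24, 12.4 and 0.511 RPKM in CD73 siRNA replicates 1, 2 and 3. Both groups had their lowest value in replicate 3, and the log2 fold change was -0.21 (SE 0.811, limma adjusted p = 0.938). The epithelial chemokine CCL28 was at 2.25 ± 0.447 and 2.44 ± 0.45 RPKM (SD, n = 3 each; log2 fold change 0.08, limma adjusted p = 0.867). Of 5 further colony-stimulating and related growth factors, 4 were listed, and KITLG (stem cell factor) passed the limit, with a log2 fold change of -0.15 (limma adjusted p = 0.749).

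Receptors for these ligands were nearly absent from the RNA. Of 26 chemokine and colony-stimulating factor receptor genes, 14 were listed and 1 passed the limit. It was CXCR4, the receptor of CXCL12, at 1.85, 4.17 and 1.86 RPKM in negative control replicates 1, 2 and 3 and at 1.87, 4.97 and 0.988 RPKM in CD73 siRNA replicates 1, 2 and 3. Its groups overlapped, and 91.2% of its variation followed replicate number (log2 fold change -0.10, limma adjusted p = 0.94). The receptors of the genes described here were far lower. CSF1R did not exceed 0.0362 RPKM in any sample, CX3CR1 0.0521 RPKM, CXCR6 0.215 RPKM and CXCR2 0.0193 RPKM. CCR2 and CCR6 were not listed. The next highest receptor, CCR10, a receptor of CCL28, was at 0.295 to 0.752 RPKM.

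Proteases that shed CXCL16, CX3CL1 and CSF1 from the membrane were expressed in both groups. Of the 8 protease and iRhom genes, 7 passed the limit, and 0 of these were below an unadjusted p of 0.01 in limma's test in either direction, with or without the replicate block, and 0 below 0.05 unblocked. Their median log2 fold change was -0.02. In 2 of the 7, ADAM9 and ADAM17, every CD73 siRNA sample lay below every control, as in 8.07% of all tested genes. ADAM17 was at 13.5 ± 1.13 RPKM in the controls and 11.5 ± 0.57 RPKM with CD73 siRNA (SD, n = 3 each; log2 fold change -0.21, 95% interval from -0.45 to 0.03, limma adjusted p = 0.454). ADAM10 was at 9.16 ± 2.26 and 8.91 ± 1.42 RPKM (log2 fold change -0.02, limma adjusted p = 0.969).

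Regulators of chemokine mRNA decay were all expressed. In the unblocked limma fit, 0 of the 8 passed the unadjusted limit of 0.01 in either direction (1, ZC3H12A, was below 0.05). In limma with the replicate block, RC3H1 and ZFP36 were below 0.05 too (unadjusted p = 0.0487 and 0.049). The share of all tested genes below 0.05 in that fit was not counted. The largest difference was in ZC3H12A, the RNase Regnase-1, which was at 7.23, 3.22 and 5.29 RPKM in negative control replicates 1, 2 and 3 and at 2.53, 2.36 and 3.1 RPKM in CD73 siRNA replicates 1, 2 and 3. The groups did not overlap, with a log2 fold change of -0.72 (SE 0.23, limma adjusted p = 0.342). When blocked on replicate number, its unadjusted p in limma was 0.00433 (adjusted p = 0.116). ZFP36 (tristetraprolin), which destabilizes AU-rich transcripts, was at 113 ± 21.8 and 88.3 ± 8.7 RPKM (SD, n = 3 each; log2 fold change -0.33, limma adjusted p = 0.417). The groups of ZFP36 did not overlap either, whereas those of the genes other than ZC3H12A and ZFP36 did. Among all tested genes, 8.07% were lower without overlap. The median log2 fold change of the 8 genes was -0.12.

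Of 13 further cytokine genes known as NF-κB targets, 12 were listed and 4 passed the limit. Of these 4, 1 (EBI3) was lower at an unadjusted p below 0.01 in limma, as were 1.31% of all tested genes. EBI3, a subunit of interleukin-27 and interleukin-35, was at 7.82, 5.72 and 6.12 RPKM in negative control replicates 1, 2 and 3 and at 2.08, 4.4 and 1.39 RPKM in CD73 siRNA replicates 1, 2 and 3. The groups did not overlap (log2 fold change -1.14, SE 0.278, limma adjusted p = 0.303), and its difference in log2(RPKM + 1) was -1.52, -0.31 and -1.58 in pairs 1, 2 and 3, smallest in pair 2. LIF, an interleukin-6 family ligand, was at 32 ± 5.79 and 24.1 ± 8.77 RPKM (SD, n = 3 each). Its log2 fold change was -0.44 (limma adjusted p = 0.489). The unadjusted p of LIF in limma was 0.103 unblocked and 0.0127 when blocked on replicate number. IL11 and IL18 had log2 fold changes of -0.24 and -0.21 with overlapping groups. The cytokine genes under the limit were not tested. Among them TNF was lower without overlap, at 0.499 to 0.967 RPKM in the controls and 0.106 to 0.148 RPKM with CD73 siRNA. IL23A was higher without overlap, at 0.597 to 0.63 RPKM in the controls and 0.751 to 1.34 RPKM with CD73 siRNA. The groups of the others under the limit overlapped. Among the 12527 tested genes, 1011 (8.07%) were lower without overlap and 1295 were higher without overlap. These counts leave out genes under the filter, such as TNF and IL23A.

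**Figure D4:**
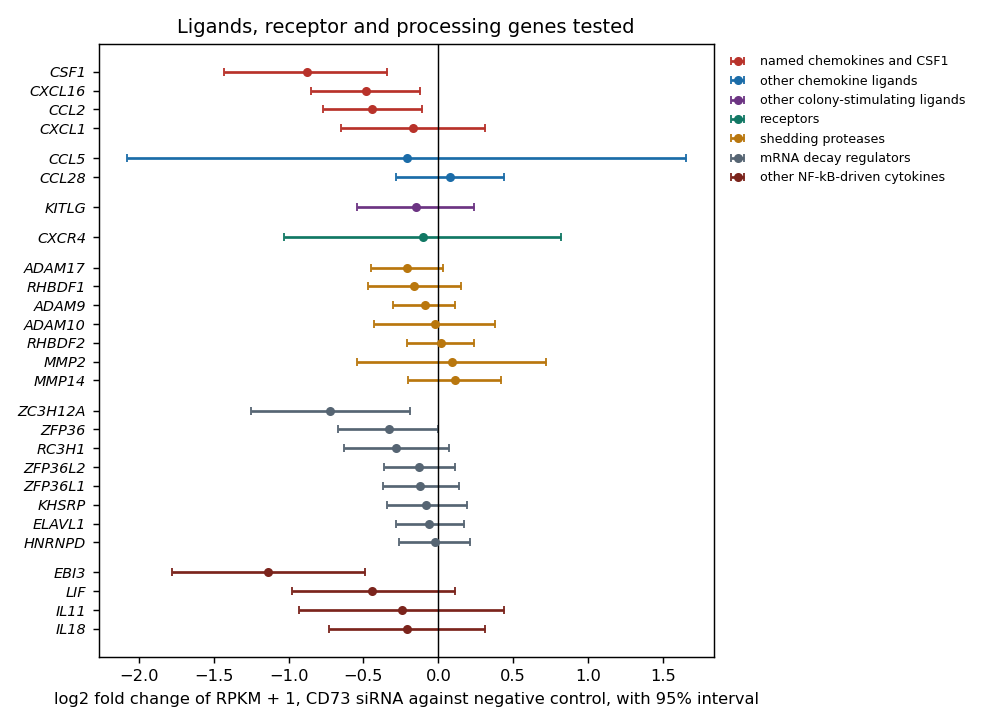
Log2 fold change of RPKM + 1 (points) with its 95% interval from limma (bars) for the 4 tested chemokine and colony-stimulating factor genes and the tested genes of the ligand, receptor, protease, mRNA decay and cytokine lists (marker lists are not drawn), coloured by list. Among the genes drawn, CSF1 (-0.88) and EBI3 (-1.14) have the intervals farthest from 0, those of CXCL16, CCL2 and ZC3H12A also lie below 0, and that of CCL5 is the widest.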

How the data were processed

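RNA-seq values were analysed for 3 CD73 siRNA and 3 negative control samples of PANC-1 cells. The authors deposited a table per sample with RPKM for 30735 genes, and every gene listed was above 0 in at least 1 sample. The submitters' processing notes name Bowtie2 2.2.3, HTSeq 0.6.0 and hg38. The unit, annotation and strand setting are not given in the sources used here. The unit was read from the values. Multiplied by merged exon length in GENCODE release 29, 96.07% to 96.27% of values under 1000 reads were whole multiples of a step within 0.1, which gave library totals and read numbers. The exon length of CCL20 differed from that of the authors, and its reads were taken from its own step. Read numbers inform on counting error only.

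Genes reaching 1 RPKM in 3 or more samples were compared on log2(RPKM + 1) with limma 3.58.1 under R 4.3.3 (moderated with a trend), and p-values were adjusted over all of them after Benjamini and Hochberg. The script was checked on artificial values. Same-numbered samples deviated together (correlations 0.197, 0.481 and 0.553 for numbers 1, 2 and 3), most weakly for number 1. They were therefore compared as pairs, although the labels do not say what the number stands for. The main fit had no block, since the methods of the study name none, and the blocked value is given where it changes a call. Alternatives were an offset of 0.1, no filter, a replicate block, rescaling by the median ratio and leaving out each sample. Genes named were the 10, NT5E, the list genes passing the filter and the 5 most similar in pattern. The members and lists were chosen with earlier results of these data known. Isoforms were not separated.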

Additional observations from a re-analysis of the deposited data

How the results depend on the processing

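The number of chemokine and colony-stimulating factor genes with an unadjusted p below 0.01 was 1, and it was 0 with no filter on low values, where CSF1 was above that limit. Leaving out each sample in turn gave 0 to 3 of these genes. It was 0 without CD73 siRNA replicate 1, CD73 siRNA replicate 3 or negative control replicate 1, 2 without CD73 siRNA replicate 2, and it reached 3 without negative control replicate 2. Over all tested genes, 392 were below 0.01 in either direction, and leaving out samples gave 110 (CD73 siRNA replicate 1) to 791 (negative control replicate 2). When replicate number was added as a block the gene count was again 1, but the gene was CXCL16 and not CSF1, and the count over all tested genes was 948. The log2 fold change of CSF1 kept its direction in 10 of 10 alternatives and its side of the limit in 5, those of CCL2 and CXCL16 in 10 and 8, and that of NT5E in 10 and 10. CXCL1 ranged from -0.32 to 0.01 on leaving out samples and changed sign once. Rescaling by the median ratio changed no call among these genes. Negative control replicate 1 was also left out of the group means, a choice made after its values were seen. This moved the mean with CD73 siRNA from 32.7% to 45.8% of the control in CXCL2 and from 66.5% to 77.6% in CXCL16. The move was from 41.6% to 74.9% in CX3CL1 and from 52.4% to 63.2% in CSF1. CXCL8 went the other way, from 72.5% to 59.6%, and the remaining listed genes moved less. The causes were not tested. Depth limits CCL20, CXCL2 and CXCL3, which rest on 0 to 9 reads per sample.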
